A study of Homo sapiens with 8 samples.

Results

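Cycling neural progenitors are dividing cells of the neural lineage, and 2114 of the 43693 cells in the series (4.84%) were taken as such here. They were chosen on measured values. A cell had to hold an expected count of 1 or more for at least 3 of 8 genes of late cell cycle (MKI67, TOP2A, CENPF, NUSAP1, UBE2C, CCNB1, BIRC5 and TPX2) and for SOX2 or PAX6, transcription factors of the neural stem cell. It also had to hold 0 for COL1A1, COL3A1 and LUM, genes of connective tissue, and for EOMES and NEUROD4, genes of progenitors on the way to neurons. The genes of the rule therefore describe the choice and are no finding.

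The cells had been differentiated from the established human embryonic stem cell line H1 into neural cultures that were flat (2-D) or organoids (3-D). The study asks what these cultures contain and what cocaine, morphine and dopamine do to them. The 8 deposited samples were sublibraries of 1 pool of cells labelled by split-pool barcoding, and members made up 4.29% to 5.30% of each sublibrary (mean 4.84%, SD 0.369, n = 8). The culture of a cell was read from its name, which carries 1 of 46 tags with an arrangement, a treatment and a number.

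Arrangement 2DMono had 6 tags and 3DMono had 6, in both cases 2 each of AcDop, AcMor and Vehic. Arrangement 2DCocu had 12 tags, 4 each of AcCoc, AcMor and Vehic, and 3DFusi had 10, of which 4 were AcCoc, 3 AcMor and 3 Vehic. Mono, Cocu and Fusi are the tags' own words and are read here as monoculture, co-culture and fused organoids. The treatment tags fit the drugs named by the series, with Vehic where the labels speak of untreated cultures, but no label defines them. Another 5 arrangements carried no treatment, namely 2DProto2Fjo, 2DProto3Wu and 2DProto4Nic with 2 tags each, and 3DProto1For and 3DProto2Xia with 3 each. The labels give no doses, times or ages, and do not say whether numbered tags were separate cultures, so n is a number of tags and a p-value measures only the spread between them. Organoids were dissociated with papain and no such step is stated for flat cultures, so format and handling cannot be told apart.

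In the developing brain, radial glia line the ventricle, divide there and give rise to neurons and later to glia. Outer radial glia, which are abundant in primates, divide away from the ventricle. During the cycle, genes for DNA synthesis are expressed in S phase and genes for chromosome segregation in G2 and mitosis. Many of the latter share promoter elements: the cell cycle homology region, with the core TTTGAA, is bound by the MuvB complexes that repress these genes in resting cells and activate them before mitosis, and the CCAAT box is bound by NF-Y.

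To show these elements in genes the rule did not use, promoters were read for the 20 genes whose level in members was highest relative to non-cycling cells. The RefSeq table (GRCh38.p14) held 18 of the 20. Printed are the last 100 bases before the annotated start of the first 4 of these genes, in order of that ratio, that hold TTTGAA there. BUB1B, a kinase of the spindle checkpoint, lies at chr15:40160969-40161068 on the plus strand. CKAP2L, a spindle protein, lies at chr2:112764610-112764709 on the minus strand. KIF4A, a chromosome motor, lies at chrX:70290004-70290103 on the plus strand, and NEIL3, a DNA glycosylase, at chr4:177309774-177309873 on the plus strand. Capitals mark TTTGAA and CCAAT on either strand (TTCAAA and ATTGG on the other), and the sequences run 5′ to 3′ on the gene's strand.
BUB1B: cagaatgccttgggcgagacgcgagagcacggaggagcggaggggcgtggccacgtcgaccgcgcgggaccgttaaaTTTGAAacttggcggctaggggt
CKAP2L: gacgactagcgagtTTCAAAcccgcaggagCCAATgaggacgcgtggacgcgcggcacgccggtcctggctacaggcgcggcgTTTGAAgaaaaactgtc
KIF4A: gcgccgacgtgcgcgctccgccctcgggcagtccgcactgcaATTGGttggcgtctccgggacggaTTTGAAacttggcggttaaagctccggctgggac
NEIL3: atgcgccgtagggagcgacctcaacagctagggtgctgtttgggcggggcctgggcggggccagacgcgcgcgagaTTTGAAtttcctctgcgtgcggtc

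Within 250 bases before the start, TTTGAA was found in 10 of the 18 promoters (55.6%) and CCAAT in 13 (72.2%). Over all 27305 promoters of the table the shares were 13.6% and 33.0%. Of a list of G2 and mitosis genes, 23 of 41 matched promoters held TTTGAA (56.1%) and 28 held CCAAT (68.3%). Of a list of S-phase genes, 2 of 33 held TTTGAA (6.06%) and 22 held CCAAT (66.7%). The 2 lists thus differed in TTTGAA and were close in CCAAT. A match describes these letters only and is not a shown binding site.

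Most members held MKI67 (95.9%), TOP2A (92.6%), CENPF (97.2%) and TPX2 (83.1%), and 27.1% to 46.2% held each of the other 4 cycling genes. PAX6 was held by 2105 members and SOX2 by only 33 (1.56%), so the neural part of the choice rested on PAX6. SOX2 lies within SOX2-OT, a long noncoding RNA that 90.4% of members held, and how the counting divided reads between them is not given in the sources used here. Of the cells, 6645 held 3 or more cycling genes. Neither SOX2 nor PAX6 was held by 2211 of these, and 2320 were kept out by 1 or more of the 5 genes that had to be 0, among them 1427 by COL1A1, 1037 by COL3A1 and 591 by EOMES. In 41 cells only values between 0 and 1 kept them out. At the edge of the rule, 344 members held exactly 3 cycling genes (median 13276 counts per cell) and 505 cells outside held exactly 2 (14229).

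Members had a median of 16758 counts and 5363 detected genes per cell, against 12776 and 4569 over all cells. Doublet calling marked 217 members (10.3%), against 6.61% of all cells, and they were kept. Among barcode combinations, 2393 of 41192 occurred in more than 1 sublibrary, 12 of them among members. For tests across genes, counts were summed over the members of a tag, and 29 tags with at least 20 members were used, namely 4 of 2DMono, 6 each of 3DMono, 2DCocu and 3DFusi, 2 each of 2DProto2Fjo, 2DProto4Nic and 3DProto2Xia, and 1 of 3DProto1For. Levels are given as CPM, the usual scaling of a gene's summed member counts by the total of the tag.

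Radial glia markers the rule did not use were held to different extents, and 3 of a list of 15 are given here. After every cell was thinned to 5000 counts, GLI3, a transcription factor of the Hedgehog pathway, was found in 84.7% of 2085 members, and VIM and NES, intermediate filament genes of radial glia, in 50.7% and 26.7%. Neuron genes were also common: SYT1, a synaptic vesicle protein, was found in 59.0% and DCX, a microtubule protein of young neurons, in 47.5%. HOPX, a marker of outer radial glia, was found in 6.67%. A comparison set of 3670 non-cycling cells met the SOX2 or PAX6 and the absence parts of the rule and held 0 for all 8 cycling genes. In that set, thinned alike, GLI3 was found in 50.7% and DCX in 57.0% of 3457 cells, and RBFOX3, a gene of mature neurons, in 31.6% against 17.5% of members. The non-cycling set therefore held more neuron transcripts and is not a pure population of resting progenitors.

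Against the non-cycling cells, genes of the cell cycle stood far apart, which the choice of members favours. The values are therefore a description over 29 tags with no test. RRM2, the regulated subunit of ribonucleotide reductase, had 285 ± 99.1 CPM in members and 3.19 ± 3.24 in non-cycling cells (mean ± SD over tags). KIF18B, a mitotic kinesin, had 171 ± 43.8 and 1.60 ± 1.61 CPM, and ASPM, a spindle pole protein whose loss causes small brain size, had 481 ± 158.0 and 10.4 ± 5.79. These 3 genes were higher in members of 29 of 29 tags, as were BUB1B, CENPE, DLGAP5, NDC80 and KIF14, all of the spindle or kinetochore.

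At least 2-fold higher in members were 45 of 47 detected G2 and mitosis genes (median log2 ratio 3.52) and 34 of 43 S-phase genes (1.54). Over all 14259 genes held by 5% or more of either set, 598 were 2-fold higher and 224 lower (median -0.04). HELLS, a chromatin remodeller of S phase, had 294 ± 60.9 against 70.9 ± 17.7 CPM. DLL1, a Notch ligand, had 54.4 ± 35.0 against 22.97 ± 15.1 CPM and was higher in 26 of 29 tags. HMGA2, a chromatin protein of early progenitors, had 333 ± 196.4 against 128 ± 83.2 CPM and was higher in 29. Of radial glia genes, 2 of 15 were 2-fold higher and 0 lower (median 0.22), and of outer radial glia genes 0 of 9 were 2-fold higher or lower (median -0.28). Of neuron genes, 0 of 9 were 2-fold higher and 2 lower (median -0.58). IL1RAPL2, a synaptic adhesion protein, had 90.3 ± 55.2 against 325 ± 262.8 CPM and was higher in 0 of 29 tags, and DCX had 250 ± 130.9 against 412 ± 162.6 CPM, likewise in 0 tags.

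The share of cells that were members was set against format. In monocultures the share was higher in 3-D than in 2-D at full depth and close at equal depth. The 6 tags of 2DMono had 2.27% to 7.03% with a median of 5.10% (mean 5.03% ± 1.65, SD), and the 6 of 3DMono had 5.52% to 9.19% with a median of 7.59% (7.44% ± 1.38). The 2 ranges overlapped. The difference was 2.41 points (two-sided exact permutation test within treatments, p = 0.00926, the smallest that 216 arrangements can give, adjusted p = 0.0185 over 2 shares).

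That difference depended on how a member was recognised. With cells thinned to 5000 counts the means were 4.69% and 4.26%, a difference of 0.43 points (exact permutation, adjusted p = 0.426). Members had a median of 18456 counts in 3DMono and 12978 in 2DMono, and the part of depth was not tested otherwise. Without the demand that 5 genes be at 0, the difference was -0.93 points (exact permutation, adjusted p = 0.639), so its direction turned. With at least 4 of the 8 cycling genes demanded, it was 2.23 points (exact permutation, adjusted p = 0.037). Cells with 3 or more cycling genes of any kind were 16.8% to 24.6% of 2DMono tags and 17.1% to 20.9% of 3DMono tags, and members were 25.4% ± 8.34 and 40.4% ± 8.68 of those cells (SD, n = 6 each). Leaving out 1 tag gave 1.74 to 3.07 points and an adjusted p above 0.05 in 8 of 12 cases (each 2DMono tag but AcDop 2 and AcMor 1, each 3DMono tag but AcMor 2 and Vehic 2).

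Co-cultures held few members and fused organoids a widely spread share. The 12 tags of 2DCocu had 1.46% to 3.34% with a median of 2.45% (2.39% ± 0.599), and the 10 of 3DFusi had 0.134% to 11.95% with a median of 2.23% (4.87% ± 4.74). Fused tags lay both above and below all the co-culture tags. The difference of 2.40 points did not pass (exact permutation, adjusted p = 0.113). Leaving out 1 of the 22 tags gave 1.34 points (without 3DFusi AcMor 1, exact permutation p = 0.261) to 3.02 (without AcMor 4), and it passed in 2 cases, without AcMor 4 or without AcCoc 3 (3.01). At 5000 counts the difference was 0.99 points (exact permutation, adjusted p = 0.426), and with Vehic tags only, 3 against 4, it was 0.70 (0.914).

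Within 3DFusi the share split by tag number, whatever the number stands for. The 3 tags numbered 1 had 7.22% to 11.95% and the single tag numbered 2 had 9.51%. The 3 tags numbered 3 had 0.134% to 2.77% and the 3 numbered 4 had 0.670% to 1.69%. Tags numbered 1 or 2 were thus all above those numbered 3 or 4, also after thinning, at 5.11% to 9.03% against 0.284% to 1.59%. This split was seen in the data and was not tested. In an alternative chosen after seeing the data, the 3DFusi tags were averaged by number, the 12 2DCocu tags were kept single and treatments were no longer kept apart. With both changes at once the difference was 3.25 points (4 values against 12, exact permutation, adjusted p = 0.0489).

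Among the arrangements without treatment, 2DProto4Nic had 11.7% and 8.68%, 2DProto2Fjo 8.26% and 7.04%, and 2DProto3Wu 0.540% and 0.743%. Tags of 3DProto2Xia had 9.17%, 0.137% and 8.86%, and those of 3DProto1For 1.21%, 0.457% and 6.04%. Both organoid arrangements held 1 tag far from the others. After thinning, 2DProto4Nic kept a mean of 9.58% while 2DProto2Fjo had 3.86%.

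**Figure D1:**
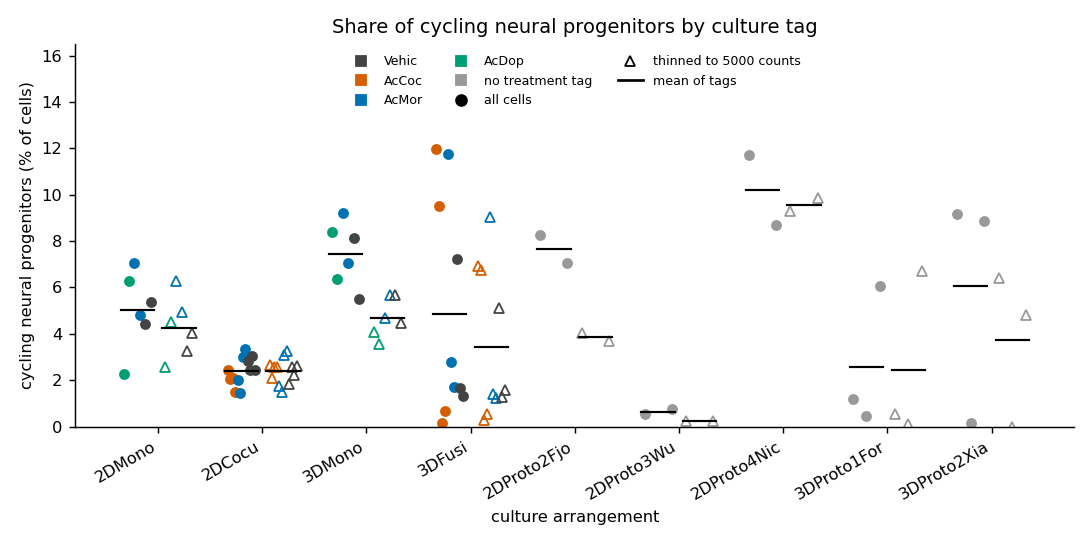
Percent of cells that were cycling neural progenitors (vertical axis) by culture arrangement (horizontal axis), 1 point per tag, filled for all cells and open for cells thinned to 5000 counts, coloured by treatment tag, with bars at the means. Means of 2DMono and 3DMono were 5.03% and 7.44% at full depth and 4.26% and 4.69% thinned, and 3DFusi tags spread from 0.134% to 11.95%.

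Shares under treatment were set against Vehic in 8 contrasts, of which 0 passed. The smallest p that the exact permutation test could reach was 0.0286 in 3 contrasts, 0.1 in 1 and 0.333 in the 4 of monocultures. None could thus have passed after adjustment over 8. The contrast with the lowest p was AcCoc in 2DCocu, with 2.02% ± 0.400 against 2.70% ± 0.300 (SD, n = 4 each, two-sided exact permutation p = 0.0571, adjusted p = 0.457 over 8 contrasts). Thinned, that difference was 0.17 points in the other direction. In 3DFusi the share under AcMor and Vehic was 11.8% and 7.22% in tags numbered 1, 2.77% and 1.67% in those numbered 3 and 1.69% and 1.33% in those numbered 4. AcMor was the higher in these 3 pairs, and thinned in the first 2 only (9.03% and 5.11%, 1.42% and 1.26%, 1.21% and 1.59%), with no test by number. AcCoc tags with the same numbers had 11.95%, 0.134% and 0.670%.

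Within members, the summed counts of S-phase genes over those of G2 and mitosis genes were compared between 3-D and 2-D. Every member was chosen on late-cycle genes, so cells early in the cycle were left out and cycle position as such was not measured. The log2 ratio was -0.50 ± 0.21 in 2DMono (n = 4, range -0.81 to -0.33) and -0.79 ± 0.33 in 3DMono (n = 6, -1.09 to -0.16). It was -0.98 ± 0.39 in 2DCocu (n = 6, -1.38 to -0.44) and -0.80 ± 0.48 in 3DFusi (n = 6, -1.53 to -0.23). All ranges overlapped. The differences of -0.34 in monocultures and 0.20 in the other pair did not pass (exact permutation, adjusted p = 0.222 and 0.542).

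Gene expression in members was then compared between 3DMono and 2DMono with edgeR, with treatment as a term and 12270 genes tested. At an adjusted p of 0.05 or less, 598 genes were higher in 3-D (4.87%) and 926 lower (7.55%), and the median log2 fold change of all genes was 0.01. Between 3DFusi and 2DCocu, of 9056 genes, 599 were higher in 3-D (6.61%) and 701 lower (7.74%), with a median of 0.03. Groups of tags did not overlap in 10.02% of all genes tested in monocultures and 7.35% in the other pair, against which each statement on overlap below is to be read. Both fits took tags as independent, although 3 of the 6 3DFusi tags used were numbered 1 and 3DFusi shares split by number. The 2 comparisons share no tags. Of 9017 genes tested in both, 528 were called in both, 34.6% of the genes called in monocultures and 40.6% of those in the other pair. Of these, 192 were higher in 3-D in both, 323 lower in both and 13 opposite. The count fell to 976 without 2DMono AcDop 2 and 936 without 2DMono Vehic 1, and in the other pair to 834 without 2DCocu AcMor 4 and 744 without 3DFusi Vehic 1. Fits with Vehic tags only, named below where a call was lost, hold 2 3DMono tags against 1 2DMono tag, and 1 3DFusi tag against 3 2DCocu tags. The lone tag there is assumed to vary like the others, so such a loss says little of the effect. All fold changes that follow are log2, 3-D over 2-D, with the standard error and the edgeR adjusted p.

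Few genes of the cell cycle differed with format among members, all of which were chosen on late-cycle genes. The 8 genes of the rule are left aside here, since it fixed their levels in part. Of S-phase genes, 1 of 42 fell and 0 rose in monocultures (median -0.14), and 1 of 37 rose and 0 fell in the other pair (median -0.09). Of G2 and mitosis genes, 4 of 47 rose and 1 fell in monocultures (median 0.28), and 2 of 46 rose and 2 fell in the other pair (median -0.31). The share of G2 and mitosis genes that rose in monocultures was above the background of 4.87%, but by few genes and with no test. Each of the other shares was below its own background.

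AURKB, the kinase that corrects chromosome attachment, had 17.0, 48.1, 32.1 and 17.6 CPM in 2DMono tags and 46.1 to 105.2 in 3DMono. The ranges met only at the highest 2DMono tag, and the fold change was 1.22 ± 0.30 (adjusted p = 0.0136). UHRF1, which keeps DNA methylation through replication, had 66.6 ± 12.2 CPM in 2DMono and 38.8 ± 7.13 in 3DMono without overlap (-0.80 ± 0.21, adjusted p = 0.0177). Of G1 cyclins and E2F genes, 2 of 8 fell in monocultures: E2F1, which drives entry into S phase, by 1.11 on the log2 scale (adjusted p = 0.00349) and E2F3 by 0.69 (0.00321). In the other pair 0 of 5 passed and E2F1 had -0.59 ± 0.35. The AURKB call was lost without 2DMono AcDop 2, without 2DMono Vehic 1 or at equal depth (edgeR adjusted p up to 0.108). That of UHRF1 was lost without either of these tags, without 3DMono Vehic 1 or with Vehic tags only (up to 0.161), and that of E2F1 at equal depth or with Vehic tags only (up to 0.385), where that of E2F3 was lost as well (0.0632).

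Some genes of outer radial glia were higher in organoid members. In monocultures 4 of 9 rose and 2 fell (median 0.83), and in the other pair 4 of 8 rose and 0 fell (median 0.87). MOXD1, a monooxygenase and outer radial glia marker, had 27.5, 112, 49.9 and 47.4 CPM in 2DMono, 83.2 to 179 in 3DMono (median 139), 10.4 to 33.4 in 2DCocu (median 14.9) and 131 to 248 in 3DFusi (median 180). Fused tags lay far above all co-culture tags, while 1 flat monoculture tag reached into the 3DMono range. The fold change was 1.21 ± 0.26 in monocultures (adjusted p = 0.00612) and 3.38 ± 0.27 in the other pair (adjusted p = 2.27e-07), and these differed by 2.15 ± 0.39 (edgeR interaction, adjusted p = 0.00324). Without 2DMono Vehic 1 the monoculture call was lost (edgeR adjusted p = 0.0585).

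PTN, a secreted growth factor of radial glia, rose by 1.30 ± 0.20 in monocultures (adjusted p = 0.000323) and 1.89 ± 0.35 in the other pair (0.00383). In monocultures LIFR, a receptor of leukemia inhibitory factor, rose by 0.83 ± 0.18. STAT3, which acts downstream of that receptor, fell by 1.09 on the log2 scale and ITGB5, an integrin, by 2.34. The members of the list thus moved in both directions there. The LIFR call was lost without 2DMono AcDop 2 or with Vehic tags only (edgeR adjusted p up to 0.261).

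Of general radial glia genes, 3 of 14 rose and 2 fell in monocultures (median 0.25), and 3 of 12 rose and 1 fell in the other pair (median 0.42). DACH1, a transcriptional cofactor, rose by 1.67 ± 0.19 and 0.97 ± 0.21, and GLI3 by 1.03 ± 0.14 and 0.57 ± 0.17. PROM1, a glycoprotein of the apical membrane, fell by 0.67 and 1.07 on the log2 scale. PTPRZ1, the receptor of PTN, rose in the other pair (1.19 ± 0.22, adjusted p = 0.00157) and had 0.17 ± 0.14 in monocultures (0.4997). The call of PROM1 in monocultures was lost in 5 of 18 alternatives, among them leaving out 2DMono AcDop 2, AcMor 2 or Vehic 1 (edgeR adjusted p up to 0.342), and in the other pair with Vehic tags only (0.382). The call of GLI3 in the other pair was lost in 4 of 20, without 2DCocu AcCoc 2, Vehic 2 or Vehic 3 or 3DFusi Vehic 1 (up to 0.327). GLI3 in 2DMono tags had 545, 586, 599 and 546 CPM, and in 3DMono 1005 to 1474, with no overlap.

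Astrocyte genes were lower in organoid members of the monocultures, and in part in the other pair. In monocultures 5 of 5 tested fell (median -2.80), and in the other pair 2 of 5 fell (median -1.02). Of the 8 listed, only 2 passed the filter on low counts in fits of 3DMono tags alone. Most of the 5 thus entered through the 2DMono tags, where they are high, and their fall was set in part by the filter. GFAP, the filament protein of astrocytes, had 80.5, 13.5, 21.4 and 120 CPM in 2DMono, 1.63 to 6.95 in 3DMono (median 4.196), 15.2 to 69.1 in 2DCocu (median 44.4) and 0.00 to 22.0 in 3DFusi (median 4.26). All flat monoculture tags were above all 3DMono tags, and 1 fused tag, AcMor 4, reached the co-culture range. The fold changes were -3.98 ± 0.32 (adjusted p = 2.81e-07) and -3.13 ± 0.53 (0.000935). ALDH1L1, a folate enzyme and astrocyte marker, fell by 3.55 and 5.21 on the log2 scale. SLC1A2, a glutamate transporter, fell by 0.97 in monocultures and had 0.53 ± 0.21 in the other pair, and the 2 effects differed (edgeR interaction 1.45 ± 0.24, adjusted p = 0.00139). Summed over 8 astrocyte genes, members had 605 to 702 CPM in 2DMono (median 669) and 218 to 321 in 3DMono (median 285), but 309 to 527 in 2DCocu (median 364) and 293 to 458 in 3DFusi (median 375), where the ranges overlapped.

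Of neuron genes, 5 of 9 fell in monocultures (median -0.79) with 0 rising, and in the other pair 3 of 9 rose and 1 fell (median 0.51). DCX fell by 0.79 on the log2 scale in monocultures and rose by 1.14 ± 0.16 in the other pair, and this difference passed (edgeR interaction 1.89 ± 0.24, adjusted p = 5.56e-05). The DCX call in monocultures was lost with 10 members per tag or with Vehic tags only, where 1 flat tag is left (as small as -0.29, edgeR adjusted p up to 0.674). Summed over 10 neuron genes, members had 2587 to 4498 CPM in 2DMono, 1885 to 2811 in 3DMono, 1766 to 2845 in 2DCocu and 2276 to 2842 in 3DFusi. Summed over 9 connective tissue genes outside the rule they had 24.1 to 67.8, 23.2 to 57.0, 42.5 to 133 and 27.8 to 48.0 CPM in the same order. Of these, 0 of 4 passed in monocultures and 2 of 2 fell in the other pair, where the summed ranges overlapped. Only these 2 of the 9 passed the filter on low counts there. The median sum was the higher in 2DCocu (60.4 against 33.0 CPM in 3DFusi). The common direction of the 2 genes may thus have been set in part by the filter. The part of these transcripts in the other results was not tested.

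Of genes of BMP and TGF-beta signalling, 6 of 11 fell in monocultures (median -0.68) and 6 of 9 in the other pair (median -1.11), with 0 rising in either. Of the 15 listed, 9 passed the filter on low counts in fits of 3DMono tags alone. Some of the 11 may thus have entered through the 2DMono tags, with their direction set in part by the filter. FST, which binds activin, had 38.1, 72.2, 24.9 and 35.2 CPM in 2DMono, 0.00 to 5.74 in 3DMono (median 2.92), 20.9 to 89.9 in 2DCocu (median 82.5) and 0.00 to 3.79 in 3DFusi (median 1.51). Every flat tag was above every organoid tag of the 4 arrangements. The fold changes were -3.81 ± 0.38 (adjusted p = 2.31e-06) and -4.69 ± 0.46 (4.1e-06). On the log2 scale the ligand TGFB2 fell by 2.09 and 1.18 and the inhibitory SMAD6 fell by 2.20 and 1.90. With Vehic tags only, which leaves 1 fused tag, both calls were lost in the other pair (edgeR adjusted p = 0.0726 for TGFB2 and 0.652 for SMAD6, the latter at -0.55).

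Of Notch genes, 1 of 12 rose and 3 fell in monocultures (median -0.30), and 0 of 10 rose and 5 fell in the other pair (median -0.71). The ligand JAG1 had 82.6, 52.9, 85.5 and 90.6 CPM in 2DMono, 21.7 to 32.1 in 3DMono (median 25.9), 115 to 150 in 2DCocu (median 142) and 22.0 to 51.5 in 3DFusi (median 35.5). All flat tags lay above all organoid tags of these arrangements. The fold changes were -1.57 ± 0.22 (adjusted p = 9.09e-05) and -1.91 ± 0.20 (3.4e-06). The coactivator MAML2 fell by 2.15 and 1.59 on the log2 scale. Among receptors NOTCH2 rose in monocultures (0.85 ± 0.18), while NOTCH1 and NOTCH3 fell in the other pair by 1.12 and 1.71. The NOTCH2 call was lost with 10 members per tag or with Vehic tags only (as low as 0.25, edgeR adjusted p up to 0.721).

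Of FGF and ERK genes, 2 of 13 rose and 5 fell in monocultures (median -0.33), and 2 of 9 rose and 1 fell in the other pair (median -0.19). The receptor FGFR2 had 91.1, 77.9, 85.5 and 76.8 CPM in 2DMono, 265 to 352 in 3DMono (median 307), 36.5 to 80.9 in 2DCocu (median 55.3) and 156 to 311 in 3DFusi (median 241). Every organoid tag here was above every flat tag. The fold changes were 1.85 ± 0.15 (adjusted p = 4.12e-07) and 2.14 ± 0.20 (1.67e-06). SPRY4, an inhibitor that the pathway induces, fell by 2.91 and 2.00 on the log2 scale. Its call in the other pair was lost without 2DCocu AcCoc 1, without 3DFusi Vehic 1 or with Vehic tags only (edgeR adjusted p up to 0.174).

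Of Hedgehog genes, 4 of 9 rose and 1 fell in monocultures (median 0.55), and 2 of 9 rose and 2 fell in the other pair (median 0.25). The co-receptor BOC rose by 1.41 ± 0.19 and 0.78 ± 0.18. The receptor PTCH1 and the factor GLI2 rose in monocultures (0.87 ± 0.23 and 0.62 ± 0.18), and HHIP, a decoy receptor, fell in the other pair by 3.53. Of WNT genes, 2 of 11 rose and 3 fell in monocultures, and 1 of 10 rose and 2 fell in the other pair. SFRP1, a secreted WNT modulator, rose by 2.90 ± 0.54 and 3.14 ± 0.52, and WLS, which carries WNT ligands to the surface, fell by 3.15 in monocultures. Calls were lost for SFRP1 in monocultures without 2DMono Vehic 1 (edgeR adjusted p = 0.0832) and for BOC in the other pair without 3DFusi Vehic 1 (0.0819). That of PTCH1 was lost without 2DMono AcDop 2, without AcMor 1 or with Vehic tags only (up to 0.753), and that of HHIP with Vehic tags only (0.627).

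Immediate early genes, which respond within minutes to stimulation and to tissue handling, were higher in organoid members. Of 13 listed genes, 5 of 9 tested rose in monocultures and 4 of 5 tested in the other pair, with 0 falling (medians 1.53 and 1.69). In a fit of 2DCocu tags alone 1 of the 13 passed the filter on low counts. Most of the 5 thus entered through the fused tags, so their common direction was set in part by the filter. FOS had 25.4, 2.89, 7.13 and 18.0 CPM in 2DMono, 58.4 to 121 in 3DMono (median 92.1), 8.37 to 24.3 in 2DCocu (median 13.5) and 54.1 to 139 in 3DFusi (median 112). No flat tag of these arrangements reached an organoid tag. The fold changes were 2.61 ± 0.43 (adjusted p = 0.00199) and 2.90 ± 0.29 (3.18e-06). EGR1 rose by 2.73 ± 0.40 and 1.701 ± 0.36 and JUN by 1.53 ± 0.37 and 1.69 ± 0.31. EGR1 lost its call in the other pair without 3DFusi Vehic 1 (edgeR adjusted p = 0.0669), and JUN in monocultures without 2DMono AcDop 2 or with Vehic tags only (up to 0.189). The part of dissociation in these values was not tested.

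Of cholesterol synthesis genes, 5 of 16 rose in monocultures (median 0.59) and 2 of 15 in the other pair (median 0.25), with 0 falling in either. HMGCS1, which makes the precursor of mevalonate, had 95.4, 81.8, 128 and 146 CPM in 2DMono and 200 to 337 in 3DMono (median 239), without overlap (1.13 ± 0.20, adjusted p = 0.0011). In the other pair it had 75.8 to 170 in 2DCocu and 91.2 to 369 in 3DFusi, where the fused tags AcCoc 2 (91.2) and AcMor 4 (147) lay inside the flat range (1.10 ± 0.31, adjusted p = 0.0332). That call was lost in 8 of 20 alternatives (edgeR adjusted p up to 0.281), all of them leaving out 1 tag, and the call in monocultures was lost with Vehic tags only (edgeR adjusted p = 0.0515). Of glycolysis and hypoxia genes, 2 of 19 rose and 2 fell in monocultures, and 3 of 16 rose and 5 fell in the other pair. HK2, the first enzyme of glycolysis, fell by 1.96 and 1.88 on the log2 scale, and VEGFA, the hypoxia-induced vascular growth factor, by 2.30 in the other pair. The HK2 call in that pair was lost with Vehic tags only (edgeR adjusted p = 0.0751).

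Genes with the largest differences among those without overlap between groups follow, as values. ZNF680, a zinc finger gene, had 38.1, 51.0, 46.3 and 26.8 CPM in 2DMono and 18.2 to 41.8 in 2DCocu, against 0.00 to 1.39 in 3DMono and 0.00 to 1.98 in 3DFusi. Its fold changes were -7.07 ± 0.51 (adjusted p = 7.92e-08) and -6.29 ± 0.66 (4.03e-06). ZNF736 fell by 6.12 and 7.06 on the log2 scale, while ZNF439 rose in the other pair, with means of 31.7 CPM in 3DFusi and 1.36 in 2DCocu (4.99, adjusted p = 1.03e-05). Without treatment, ZNF680 had 36.3 and 23.2 CPM in 2DProto2Fjo but 0.00 and 1.28 in 2DProto4Nic and 0.00 to 0.884 in the organoid tags, so its level did not follow format alone.

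The arrangements without treatment did not follow format in several of these genes, given here as values with no test. FST had 5.04 and 0.373 CPM in 2DProto2Fjo, 0.00 and 1.28 in 2DProto4Nic and 0.775 and 3.98 in 3DProto2Xia. JAG1 had 33.8 and 35.9, 42.5 and 52.5, and 39.5 and 33.6 CPM in the same order. Both flat arrangements thus lay at or near the organoid levels of these 2 genes.

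FGFR2 had 104 and 162 CPM in 2DProto2Fjo, 222 and 259 in 2DProto4Nic and 79.9 and 77.4 in 3DProto2Xia, where the organoid tags were the lowest. FOS had 39.93 and 39.96 CPM, 10.5 and 9.93, and 52.7 and 63.7 in that order, so the organoid tags were the highest. GFAP was low in all 6 of these tags, at 0.775 to 6.72 CPM, and GLI3 ranged from 290.1 in 3DProto2Xia to 2053 in 2DProto4Nic.

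CACNG5, an auxiliary subunit of ion channels, fell by 5.45 and 4.14 on the log2 scale, and CD44, a hyaluronan receptor, by 5.28 in monocultures. GREM1, a BMP antagonist, fell by 5.35 in monocultures. GRIP2, a scaffold of glutamate receptors, rose by 4.06 ± 0.27 and 4.16 ± 0.34, and VAX1, a homeobox factor of the ventral forebrain, by 3.45 ± 0.71 and 4.39 ± 0.80. KLHL14 rose by 4.78 ± 0.54 in monocultures. HS6ST2, a heparan sulfate sulfotransferase, rose by 3.41 ± 0.29 in the other pair. With Vehic tags only, thus with 1 tag in an arm, calls were lost for VAX1 in monocultures (edgeR adjusted p = 0.0554) and for ZNF736 in the other pair (0.0577). PAX6, which the rule drew on, had -0.62 ± 0.18 and -0.90 ± 0.15.

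**Figure D2:**
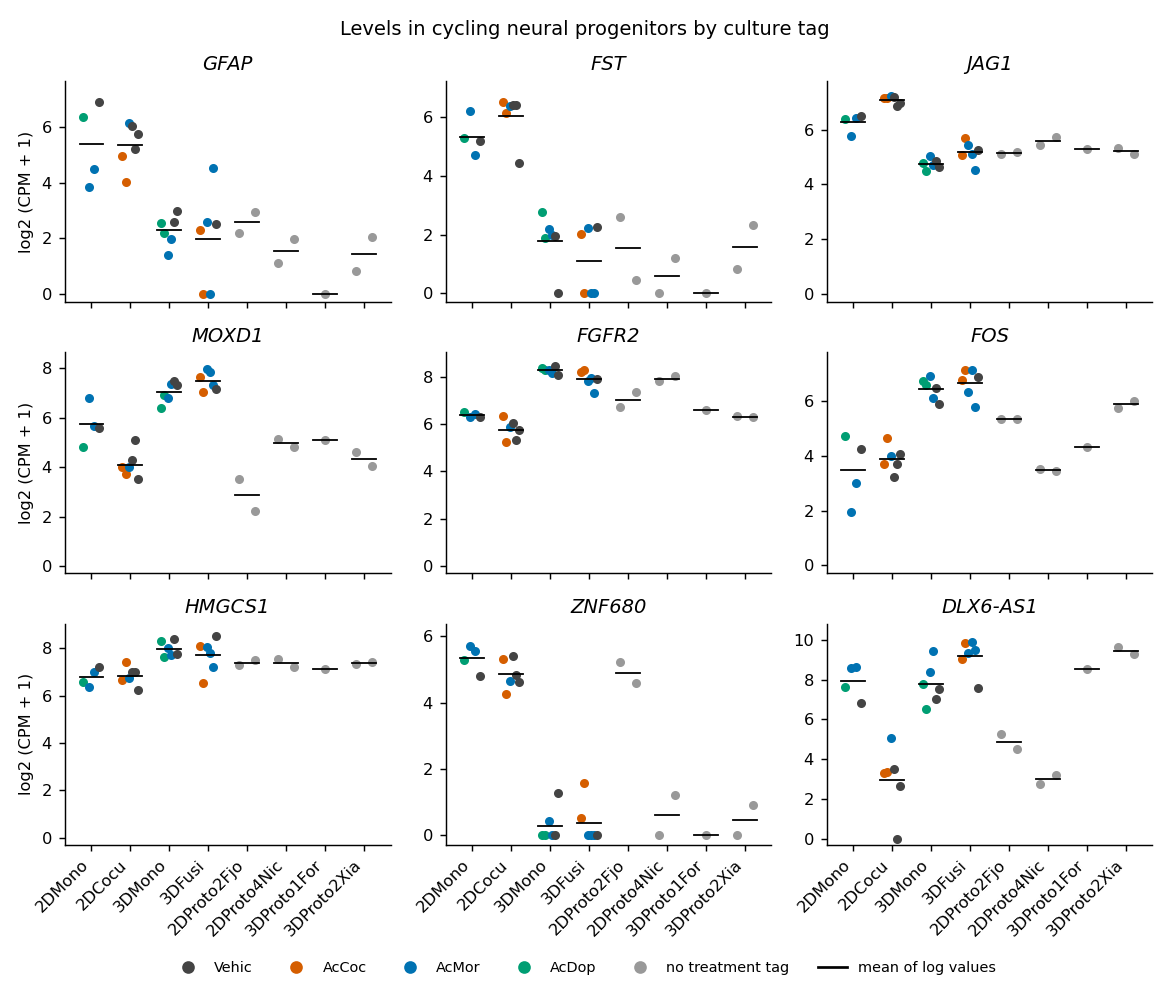
Level in cycling neural progenitors as log2 (CPM + 1) (vertical axes) by arrangement (horizontal axes) for 9 genes, 1 point per tag with at least 20 members, coloured by treatment tag, with bars at the mean of log values. FST and JAG1 were lower and FGFR2 and FOS higher in every 3DMono and 3DFusi tag than in every 2DMono and 2DCocu tag, while DLX6-AS1 was low in 2DCocu (0.00 to 32.5 CPM) and not in 2DMono (112 to 399).

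**Figure D3:**
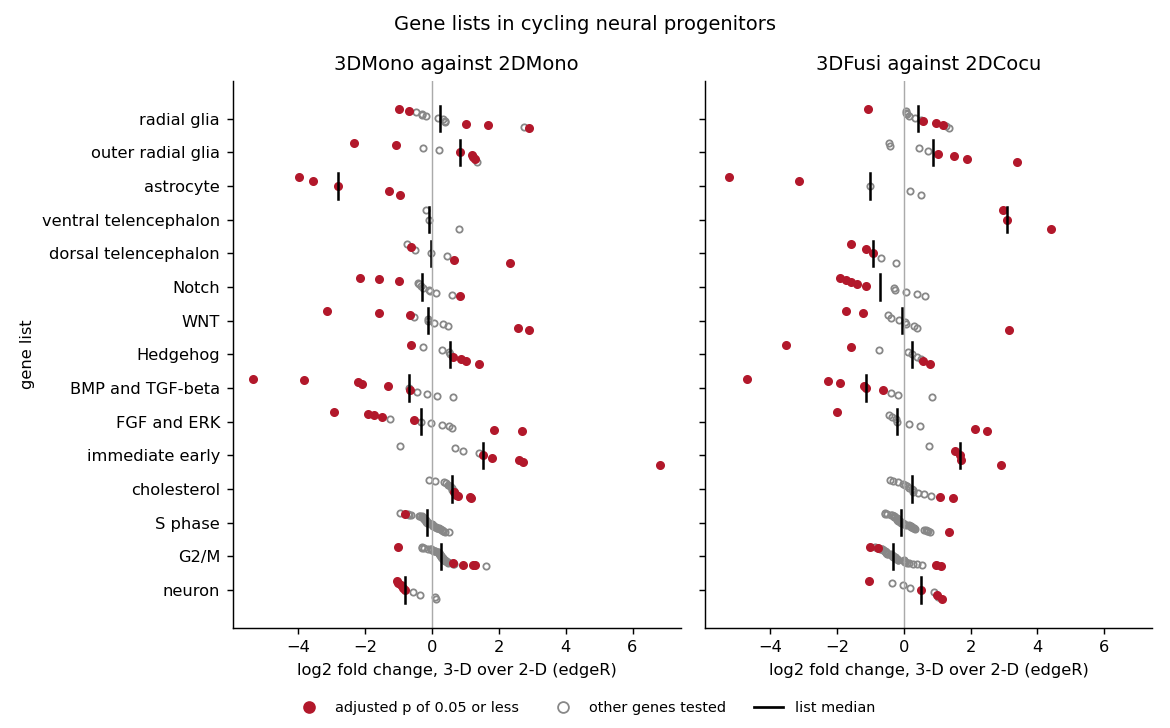
Log2 fold change in members, 3-D over 2-D (horizontal axes), of the tested genes of 15 lists (vertical axis) in monocultures and in the fused and co-culture pair, with genes at an adjusted p of 0.05 or less filled and list medians as bars. Of astrocyte genes 5 of 5 passed to the left in monocultures and 2 of 5 in the other pair, and of BMP and TGF-beta genes 6 of 11 and 6 of 9. Medians of immediate early genes lay to the right, and ventral telencephalon genes to the right in the fused and co-culture pair (median 3.10, against -0.09 in monocultures). Some genes of the astrocyte, immediate early and ventral lists passed the filter on low counts only through the format where they were high. Their direction was set in part by that filter. The same may hold for some BMP and TGF-beta genes in monocultures.

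Ventral genes differed with format in the fused and co-culture pair. Of 10 ventral telencephalon genes, which mark the ganglionic eminences where inhibitory neurons arise, 3 were tested in each pair. All 3 rose in fused members over co-culture members (median 3.10) and 0 of 3 passed in monocultures (median -0.09). In a fit of 2DCocu tags alone 0 of the 10 passed the filter on low counts. The 3 genes thus entered through the fused tags, where they are high, and their common direction was set in part by the filter. DLX6-AS1, a noncoding RNA beside DLX5 and DLX6, had 199, 384, 399 and 112 CPM in 2DMono, 92.1 to 691 in 3DMono (median 203), 0.00 to 32.5 in 2DCocu (median 9.05) and 191 to 968 in 3DFusi (median 679). Co-culture members were low and the other 3 arrangements were high and overlapped. The fold change was 0.16 ± 0.26 in monocultures (adjusted p = 0.769) and 5.16 ± 0.32 in the other pair (5.58e-08), and these differed (edgeR interaction 4.98 ± 0.45, adjusted p = 5.27e-06). As the counting's use of strand is not given, reads of DLX6 and its antisense partner cannot be told apart. DLX1 and DLX5 rose by 3.10 ± 0.39 and 4.42 ± 0.61 in fused members, with interactions of 3.16 ± 0.45 and 4.61 ± 0.74. They were the 2 of 4 genes of the ventral list that passed the interaction.

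Of dorsal telencephalon genes other than PAX6, which the rule used, 2 of 6 rose and 0 fell in monocultures (median 0.22), and 0 of 4 rose and 2 fell in the other pair (median -0.89). In the interaction of the pairs 0 of 6 passed. EMX1, a homeobox factor of the cortex, had 8.48, 8.66, 17.8 and 5.45 CPM in 2DMono and 26.5 to 59.6 in 3DMono, with no overlap (2.32 ± 0.32, adjusted p = 7.64e-05), and was not tested in the other pair for low counts. EMX2 fell by 1.12 on the log2 scale in fused members (adjusted p = 0.0164). HMGA2 rose by 0.65 ± 0.18 in 3DMono (adjusted p = 0.0248). The EMX2 call was lost without 2DCocu AcMor 4 or 3DFusi AcCoc 1 (edgeR adjusted p up to 0.168), and that of HMGA2 in 7 of 18 alternatives, among them leaving out 2DMono AcDop 2, AcMor 1 or Vehic 1 or 3DMono AcMor 2 or Vehic 1 (up to 0.172).

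The interaction of format and pair was added after the data had been seen. It passed for 192 of 11997 genes (1.60%), 116 with a more positive difference in the fused and co-culture pair and 76 with a more negative one. Without 2DCocu AcMor 4 the count was 103, without 2DMono AcDop 2 it was 99 and without 2DMono Vehic 1 it was 116. TMEM132D, a membrane protein, had means of 221 CPM in 2DMono, 579.5 in 3DMono, 1243 in 2DCocu and 326 in 3DFusi (-3.12 ± 0.51, adjusted p = 0.00328). CCN2, a matrix protein induced by stretch and YAP, had 60.9, 2.29, 8.38 and 2.95 CPM in the same order (4.05 ± 0.79, adjusted p = 0.00611). The CCN2 call was lost without 2DMono Vehic 1 or without doublets (edgeR adjusted p up to 0.143).

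Ventral and dorsal genes were also counted cell by cell, at 5000 counts. DLX1, DLX2, DLX5 or DLX6-AS1 was found in 684 of 2085 members (32.8%), EMX1 or EMX2 in 446 (21.4%) and both in 59 (2.83%). Dorsal genes were found in 12.7% of 79 members with ventral genes and 17.6% of the 159 without in 2DMono, in 10.8% of 176 and 33.2% of 355 in 3DMono, and in 9.68% of 217 and 20.5% of 220 in 3DFusi. In 2DCocu the order was the other way, with 42.9% of 14 and 19.4% of 237. These shares are over cells, with no test. By arrangement the ventral share was 33.2% in 2DMono, 33.1% in 3DMono, 5.58% in 2DCocu and 49.7% in 3DFusi. It was 80.7% in 3DProto2Xia, 54.8% in 3DProto1For, 4.32% in 2DProto2Fjo and 1.54% in 2DProto4Nic. The dorsal share was highest in 2DProto2Fjo at 47.0%, with 31.8% in 2DProto4Nic and 1.49% in 3DProto2Xia.

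Cells with genes of connective tissue were set beside members, and no value here tells stray transcripts from their own expression. Of 1819 cells holding COL1A1, COL3A1 and LUM, thinned alike, 12.7% had a count of the ventral genes and 3.52% of the dorsal ones (median depth before thinning 19964 counts, against 16910 in members). By arrangement their ventral share was 20.5% in 3DFusi, 17.3% in 3DMono, 7.29% in 2DMono, 3.00% in 2DCocu, 5.33% in 3DProto2Xia, 3.55% in 3DProto1For and 0.00% in 2DProto4Nic. The ventral share of members was higher than that in each of these arrangements. In 2DCocu it was 5.58% against 3.00%, with non-cycling cells at 8.23%, and in 2DProto4Nic 1.54% against 0 of 115 cells. In 2DProto2Fjo it was lower, at 4.32% against 1 of 11 cells (9.09%). In 2DProto3Wu only 15 members and 13 connective tissue cells could be set side by side (46.7% and 76.9%).

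Tags of 1 arrangement differed in their regional make-up. Ventral shares were 15.9% to 54.4% in 3DMono tags, with the 2 AcMor tags highest at 44.0% and 54.4%, and 22.1% to 49.3% in 2DMono tags. In 3DFusi they were 25.4% in Vehic 1 and 50.5% to 66.7% in the other 5 tags. The 2DCocu tags had 0.00% to 13.6%.

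**Figure D4:**
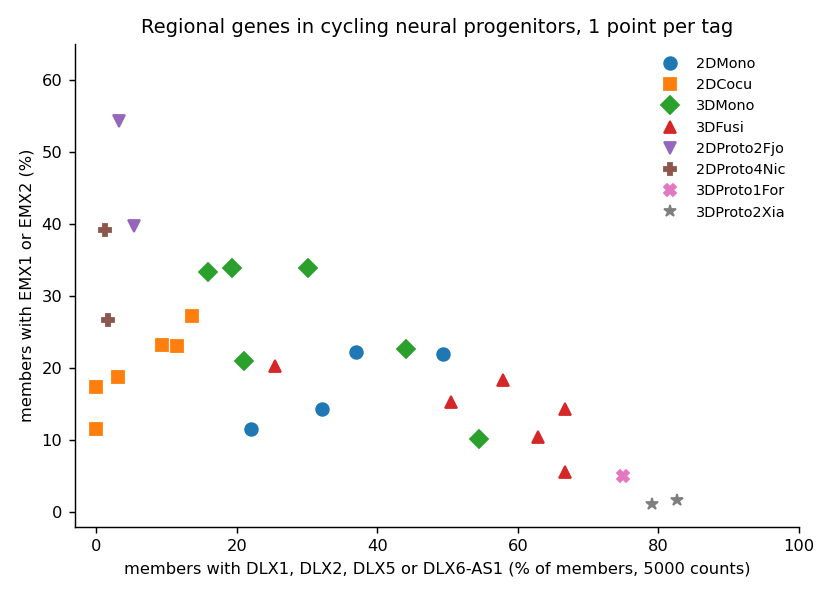
Percent of members with a count of EMX1 or EMX2 (vertical axis) against percent with a count of DLX1, DLX2, DLX5 or DLX6-AS1 (horizontal axis), thinned to 5000 counts, 1 point per tag with at least 20 members and 1 colour and shape per arrangement. The 3DProto2Xia tags stand at 79.1% and 82.6% ventral, the 2DProto2Fjo tags at 39.8% and 54.3% dorsal, and 3DMono tags run from 15.9% to 54.4% ventral.

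Whether format differences were particular to members was tested as the difference between their 3-D against 2-D change and that of the non-cycling cells of the same tags. In monocultures this passed for 252 of 13752 genes (1.83%), 146 more positive and 106 more negative in members. Without 2DMono Vehic 1 there were 166, without 3DMono AcMor 1 150 and without 3DMono Vehic 1 164. In the other pair it passed for 28 of 12231 genes (0.229%), 12 more positive and 16 more negative, and for 15 without 3DFusi AcMor 1.

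In monocultures 5 of 15 radial glia genes had a more negative difference in members and 0 a more positive one (list median -0.72, all genes 0.02). For GLI3 the means were 1222 CPM in 3DMono and 569 in 2DMono members, and 1199 and 157 in non-cycling cells (-1.81 ± 0.24, adjusted p = 0.00161). For DACH1 they were 1084 and 307 in members and 999 and 92.3 in non-cycling cells (-1.50 ± 0.14). In both genes the organoid levels of the 2 sets were close and the flat non-cycling cells were low. HOPX had 17.1 and 4.79 CPM in members and 28.4 and 1.97 in non-cycling cells (-2.21 ± 0.55, adjusted p = 0.0419). POU3F2, a neural POU factor, had 61.7 and 37.0 in members and 39.8 and 4.202 in non-cycling cells (-2.07 ± 0.33). The HOPX call was lost in 9 of 17 alternatives (edgeR adjusted p up to 0.712).

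More positive in members were SGCD, a muscle membrane protein, with 100.2 and 78.1 CPM in members against 117 and 722 in non-cycling cells (2.92 ± 0.44, adjusted p = 0.0122), and FGFR2, with 308 and 82.8 against 272 and 134 (0.90 ± 0.21, adjusted p = 0.0267). In the fused and co-culture pair NES was more positive in members (84.0 and 76.8 CPM against 62.3 and 118, 1.01 ± 0.19, adjusted p = 0.0193). CNTNAP4, a neuronal adhesion protein, was more negative (21.0 and 146 CPM against 50.4 and 62.6, -2.46 ± 0.43, adjusted p = 0.0234). The NES call was lost without 3DFusi AcMor 1 or Vehic 1 (edgeR adjusted p up to 0.0549). That of CNTNAP4 was lost without 2DCocu AcMor 4 or Vehic 1, without 3DFusi AcMor 4 or Vehic 1, or without doublets (up to 0.2003). The non-cycling cells' larger content of neuron transcripts, given above, stands beside all of these and its part was not tested.

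Treatments were compared within an arrangement where both groups kept 2 or more tags, which left 3 contrasts, and few genes passed. AcCoc against Vehic in 2DCocu (2 tags against 3) gave 24 of 8099 genes (0.296%), 1 higher and 23 lower. PLPPR1, a phospholipid phosphatase-related protein of growing neurites, had 38.9 and 18.2 CPM under AcCoc and 146, 219 and 183 under Vehic (-2.66 ± 0.38, adjusted p = 0.000271). UNC5D, a netrin receptor, had 80.9 and 91.2 against 284.5, 307 and 593 CPM (-2.22 ± 0.36, adjusted p = 0.00718), and ST6GAL2, a sialyltransferase, had 11.98 and 6.08 against 102.5, 85.1 and 91.4 (-3.33 ± 0.52, adjusted p = 0.000598). In these 3 genes both AcCoc tags lay below all Vehic tags, and the single AcMor tag lay between. Groups did not overlap in 26.2% of all genes tested here, and the rule for naming genes demanded it. The ventral share of members, given above, also differed in this contrast, and its part was not tested. It was 13.6% of 22 and 11.5% of 26 members under AcCoc. Under Vehic it was 3.12% of 32, 0.00% of 26 and 0.00% of 23. These shares rest on few cells, and the AcMor tag had 9.30% of 43. SOX2-OT was the 1 gene that rose, with 827 and 1015 against 512.5, 425 and 449 CPM (0.99 ± 0.23, adjusted p = 0.0414), and the AcMor tag had 792. The AcCoc tags held 22 and 26 members. The count was 14 without AcMor 4 and 43 without Vehic 1. Without AcCoc 1 or AcCoc 2 a single AcCoc tag is left, so calls gained or lost there say little of the effect. With tags of 10 or more members admitted 4 genes passed, and none of PLPPR1, UNC5D, ST6GAL2 and SOX2-OT did so. The UNC5D call was also lost without AcCoc 2, and that of SOX2-OT without AcCoc 2, AcMor 4, Vehic 1 or Vehic 2. At 5000 counts per cell those of PLPPR1, ST6GAL2 and SOX2-OT were lost, without called doublets that of UNC5D, and without edgeR's robust option that of SOX2-OT.

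In 3DMono, AcMor against Vehic (2 tags each) gave 4 of 12026 genes (0.0333%). LMO1, a transcriptional cofactor, had 67.1 and 65.5 CPM under AcMor and 13.6 and 8.34 under Vehic (2.61 ± 0.41, adjusted p = 0.0372). ARHGAP33 had 127 and 112 against 38.04 and 27.8 (1.94 ± 0.30, adjusted p = 0.0372). LAMA2, a laminin chain, had 4.23 and 3.68 against 79.0 and 50.04 CPM (-3.85 ± 0.47, adjusted p = 0.00706). GLIS3, a zinc finger factor, had 95.9 and 128 against 316 and 368 (-1.51 ± 0.24, adjusted p = 0.0372). In each of the 4 genes the 2 groups did not overlap, as in 35.4% of all genes tested in this contrast. The AcDop tags, which entered the same fit, had 34.4 and 14.4 CPM of LMO1 and 2.87 and 9.93 of LAMA2, so LAMA2 was low under both drugs' tags. Other markers moved with this contrast. Summed over 8 choroid plexus genes, members had 16.9 and 29.4 CPM under AcMor, 421 and 203 under Vehic and 206 and 1329 under AcDop, of which HTR2C, a serotonin receptor, made up 3.74 and 4.42, 345 and 179, and 126 and 1144. Summed over 12 genes of the roof plate and cortical hem they had 207 and 232, 410 and 335, and 294 and 446 CPM in that order. Over 7 muscle genes 5 of the 6 tags had 16.4 to 37.5 CPM and Vehic 2 had 1172, of which TTN gave 1022. The ventral shares of the AcMor tags given above were higher too. The part of these markers in the 4 calls was not tested. The count was 62 without AcDop 1 and 52 without AcDop 2. Without AcMor 1 or AcMor 2 a single AcMor tag is left, and no count is read from these fits. Each fit without Vehic 1 or Vehic 2 leaves a single Vehic tag, so a loss there says little of the effect. The calls of LMO1, ARHGAP33 and GLIS3 were lost in both, and that of LAMA2 without Vehic 1. At 5000 counts per cell those of LAMA2 and GLIS3 were lost too, and without edgeR's robust option those of LMO1, ARHGAP33 and GLIS3. That of GLIS3 was also lost without called doublets.

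AcDop against Vehic in 3DMono gave 0 of 12026 genes (0.00%) with edgeR, 468 at an unadjusted p under 0.05, and 3 with DESeq2. Transcripts of the drug targets named here were scarce in members. At 5000 counts DRD2, a dopamine receptor, was found in 1.199% of members, OPRM1, the receptor of morphine, in 2.54% and SLC6A3, the dopamine transporter that cocaine blocks, in 0.144%, and 0 of the 13 receptor and transporter genes listed passed the filter on low counts in the format comparisons. In non-cycling cells the shares were 1.85%, 4.28% and 0.202%.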

How the data were processed

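Single-cell RNA was measured in 8 sublibraries of 1 split-pool experiment. The deposited matrix holds expected counts, estimated by the authors for 60286 genes in 43693 cells, and 54.3% of its entries above 0 equal a whole number exactly, with no tolerance. The submitters' processing notes name Salmon 1.7.0, alevin, Seurat 4.1.1 and hg38, with no role for each. Strand use in counting is not given in the sources used here. No cell of the matrix had under 1006 detected genes or over 10.0% mitochondrial counts.

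Members were found by the stated rule, counts were summed per tag and rounded to whole numbers. Tags with at least 20 members entered edgeR 4.0.16 (R 4.3.3): default filter on low counts, TMM, robust quasi-likelihood test, Benjamini-Hochberg adjustment, threshold 0.05. Shares were compared by exact permutation (numpy 2.4.6). Tags were permuted within treatments for the 2 format comparisons and between treated and Vehic for the 8 treatment contrasts. P-values were adjusted over the 2 or the 8. Depth was 47787682 counts over all members and 3804 to 263944 per member. For shares at equal depth every cell was thinned to 5000 counts, which left out 1948 shallower cells. Doublets were scored against simulated pairs of cells and 6.61% of cells were called at 0.68, but none was removed in the values reported. Interactions with non-cycling cells were fitted on 2 sums per tag, with the tag as a block.

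Members and gene lists were chosen with earlier results of these data known. Named were the 10 largest changes in each direction among called genes with a mean of 10 CPM or more in the higher group and no overlap between groups, up to 4 genes a list by adjusted p, and the 20 highest and 10 lowest ratios to non-cycling cells. Not every gene so named is printed. Genes or values outside that rule, such as HELLS, DLL1, HMGA2 and DCX against non-cycling cells or DACH1 and FGFR2 in the interaction, were chosen after their values were seen.

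On simulated data the 3DMono against 2DMono fit recovered 33% of genes changed 2-fold and 74% of those changed 4-fold among 12045, with 3.60% false calls. The 3DFusi against 2DCocu fit recovered 34% and 74% among 9067 (6.09% false), the AcCoc fit 13% and 66% among 8008 (12.2% false) and the AcMor fit in 3DMono 12% and 59% among 11886 (15.5% false). Alternatives covered normalization (DESeq2 1.42.0 size factors), DESeq2 itself, filters, depth, doublets, the rule, Vehic tags only and each tag left out. Equal tag numbers were not taken as pairs, since no label defines them. Correlations of same-numbered tags' deviations were 0.0239 to 0.182, over too few pairs to exclude pairing. The share tests and the main gene fits did not keep numbers apart, although 3DFusi shares split by number. Their p-values take the tags as independent.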

Additional observations from a re-analysis of the deposited data

Results flagged for a closer look

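Of 59 groups of tags examined, 8 held a tag that stood apart from the others of its arrangement. The cut-off marks about 1 in 20 groups of independent, normally spread values. These groups mix treatments, and some hold CPM near 0, so no excess is read from the count. The log2 ratio of S-phase to G2 and mitosis counts was -0.16 in 3DMono AcDop 2, the highest of its 6 tags. In 2DCocu, AcMor 4 had 32.5 CPM of DLX6-AS1, Vehic 3 had 20.9 CPM of FST and Vehic 2 had 33.4 CPM of MOXD1. In 3DFusi, AcMor 4, which held 21 members, had 22.0 CPM of GFAP and 620.6 CPM of GLI3. For ZNF680, which was at 0 in most organoid tags, 3DFusi AcCoc 2 had 1.98 CPM and 3DMono Vehic 2 had 1.39 CPM.

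Effects of format differed between groups by edgeR interaction tests in 3 cases. The 3-D against 2-D difference was not the same in members and non-cycling cells for 252 genes in monocultures and 28 in the fused and co-culture pair, and it differed between the 2 pairs of arrangements for 192 genes.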

How the results depend on the processing

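The share difference of 3DMono over 2DMono was 0.43 points at equal depth, 2.73 with 2 cycling genes, 2.45 with 0.5 read as detected, and 1.99 without doublets, none past the threshold, and -0.93 without the genes that must be 0. With at least 4 cycling genes it was 2.23, past the threshold. With Vehic tags only it was 1.92, where 2 tags against 2 cannot pass. That of 3DFusi over 2DCocu was 3.25, past the threshold, with 3DFusi tags alone averaged by number and treatments not kept apart, chosen after seeing the data. Without the genes that must be 0 it was 3.82 (exact permutation, adjusted p = 0.426). At equal depth treatment differences turned to 0.17 (AcCoc, 2DCocu), 0.089 (AcMor, 2DCocu) and -1.28 (AcDop, 3DMono).

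Counts of called genes for 3DFusi against 2DCocu were 768 at equal depth and 641 with Vehic tags only, a fit of 1 fused tag against 3. For AcCoc they were 88 with no filter, 13 without the robust option, 4 with 10 members per tag and 9 at equal depth. For AcDop they were 3 with DESeq2 and 24 with no filter, and for AcMor in 3DMono 33, 187 and, at equal depth, 12. The interaction with non-cycling cells gave 553 with no filter in monocultures, and in the other pair 69 with DESeq2, 228 with no filter, 91 with 10 members per tag and 61 at equal depth. The interaction of the pairs gave 373 with DESeq2 and 624 with no filter. The cause was not tested. With the tag number as a replicate block AcMor in 3DMono gave 12 calls, and the block could not be fitted for AcCoc. The percent of calls that were higher in 3-D moved from 46.1 to 57.7 with no filter in the fused and co-culture pair. With Vehic tags only it was 57.9 there and 32.3 in monocultures (39.2 with all tags), where 1 arm is a single tag, so no shift is read from it.

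Leaving out each tag gave 1.74 to 3.07 and 1.34 to 3.02 points for the 2 shares and -0.47 to -0.20 and 0.039 to 0.35 for the cycle ratios. Calls ranged from 936 to 1584 for 3DMono, 744 to 1404 for 3DFusi, 14 to 66 for AcCoc, 0 to 19 for AcDop, 3 to 62 for AcMor, 150 to 217 and 15 to 41 for the interactions with non-cycling cells and 99 to 221 for that of the pairs. Treatment shares ranged from -0.82 to -0.50 and -0.55 to 0.080 in 2DCocu (AcCoc, AcMor), 0.034 to 4.07 and -1.18 to 3.91 in 3DFusi, -2.63 to 1.36 and -0.073 to 2.13 in 2DMono (AcDop, AcMor), and -0.74 to 1.87 and -0.0030 to 2.60 in 3DMono. Log2 changes of uncalled DLX1 in monocultures ran from -0.18 to 0.0070 with 1 tag left out, and DLX5 1.23 with Vehic tags only, and EPHA5, called for AcCoc, 0.089 with 10 members per tag. Of 152 calls of named genes, counting a gene once per comparison, 76 held in all alternatives and 33 were lost in 3 or more. Where a treated or Vehic group held 2 tags, leaving out 1 of them left a single tag in that group. Treatment contrasts in 2DMono and 3DFusi, and AcMor in 2DCocu, were not run for too few tags with 20 members.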
